A study of Mus musculus with 3 samples.

Results

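The genes of fibroblast growth factor (FGF) ligands and receptors were read in wounded mouse fibroblasts that had received soluble micrograft (MG) and the MEK inhibitor PD0325901. The members are the 10 genes Fgf1, Fgf2, Fgf5, Fgf7, Fgf10, Fgfr1, Fgfr2, Fgfr3, Fgfr4 and Fgfrl1, chosen by name out of 43472 rows of the expression table. The series holds 3 libraries, biological replicates 1, 2 and 3 of 1 condition, in which primary fibroblasts from tail tips of C57BL/6 mice were scratched and treated for 5 h. Every library carries both agents, the MG being a cell-depleted extract of ground mouse skin diluted in growth medium with serum. The age and sex of the mice, and whether each replicate came from a separate animal, are not given in the sources used here. No condition without the inhibitor or without MG was analysed here, so the levels describe a single state and are compared between genes and between replicates. RNA-seq counts the transcripts of the cells and says nothing of FGF protein that the MG or the serum brings.

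FGFs are secreted signals that bind a receptor tyrosine kinase together with heparan sulfate, and the activated receptor passes the signal through the adaptor FRS2 and RAS to RAF, MEK and ERK. PD0325901 acts on MEK, downstream of the receptors. In skin, FGF7 and FGF10 are made by dermal cells and act on the epithelial splice form of FGFR2, which is the classical route by which fibroblasts stimulate keratinocytes during wound repair, while FGFR1 and the mesenchymal splice forms serve the fibroblast itself.

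Values are normalized counts, that is, reads on a gene divided by the size factor of its library. The libraries held between 17244505 and 27037783 reads on genes, and the intervals given below (95%, exact Poisson on the reads) cover counting error only. Reads carried no molecular identifiers, so the intervals take every read as independent and can be too narrow. Detection was set at a minimum of 10 normalized counts in each library, which 8 of the 10 members reached. The 8 fibroblast markers Col1a1, Col1a2, Col3a1, Pdgfra, Pdgfrb, Thy1, Vim and Dcn were all detected, but Thy1 had 2031, 15760 and 1652 normalized counts in replicates 1, 2 and 3, far the highest in replicate 2, and Dcn had 3661, 1723 and 3659, lowest there. Of the keratinocyte markers, Krt5, Krt14, Krt15 and Krt1 had at most 2.37 normalized counts in any library, and the list of 7 summed to between 43.0 and 89.4, of which Krt10 held most. Replicate 2 also stood apart from the others in some markers of other mesenchymal cells. Its 4 tendon markers summed to 1105 normalized counts against 12080 in replicate 1 and 11732 in replicate 3, a sum held mostly by Fmod and Scx, while Tnmd had 124, 127 and 107 and was highest in replicate 2. The 7 cartilage markers in the table summed to 777 normalized counts in replicate 2 against 14622 and 4075, most of it Col2a1 and Comp. Of the 4 with a mean of at least 10, 3 were lowest in replicate 2. Sox9, with 171, 149 and 117 in replicates 1, 2 and 3, was lowest in replicate 3. Matn3 had 7.82, 12.7 and 5.93, highest in replicate 2, and Matn1 was at 0 in every library. The endothelial list of 5 summed to 244 normalized counts in replicate 2 against 90.3 and 55.7, of which Tek held 185. Egfl7 had 69.5, 53.6 and 49.8 and Pecam1 9.55, 3.52 and 2.37, both highest in replicate 1. Cdh5 and Kdr were at or under 4.34 everywhere. The leukocyte list of 6 summed to 691 normalized counts in replicate 3 against 150 and 104 in replicates 1 and 2, most of it Lyz2. Of the 3 with a mean of at least 10, 2 were highest in replicate 3. Cd68 had 22.6, 33.1 and 27.3, highest in replicate 2, and Ptprc was at 1.74 or less in every library. The 4 Schwann cell markers summed to 59.9 in replicate 2 against 148 and 151, with Sox10 at 2.37 or less in every library. In such bulk RNA, fewer cells of a type and less RNA per cell cannot be told apart.

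Fgf7 was the dominant ligand and Fgfr1 the dominant kinase receptor, and both varied little between the replicates. Fgfrl1, the receptor without a kinase domain, had levels per length of exon whose range overlapped that of Fgfr1. Fgf10, Fgfr2, Fgfr3, Fgf2 and Fgf1 were present at far lower levels, Fgf5 was detected in replicate 2 only, and Fgfr4 was not detectable at this depth.

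**Figure D1:**
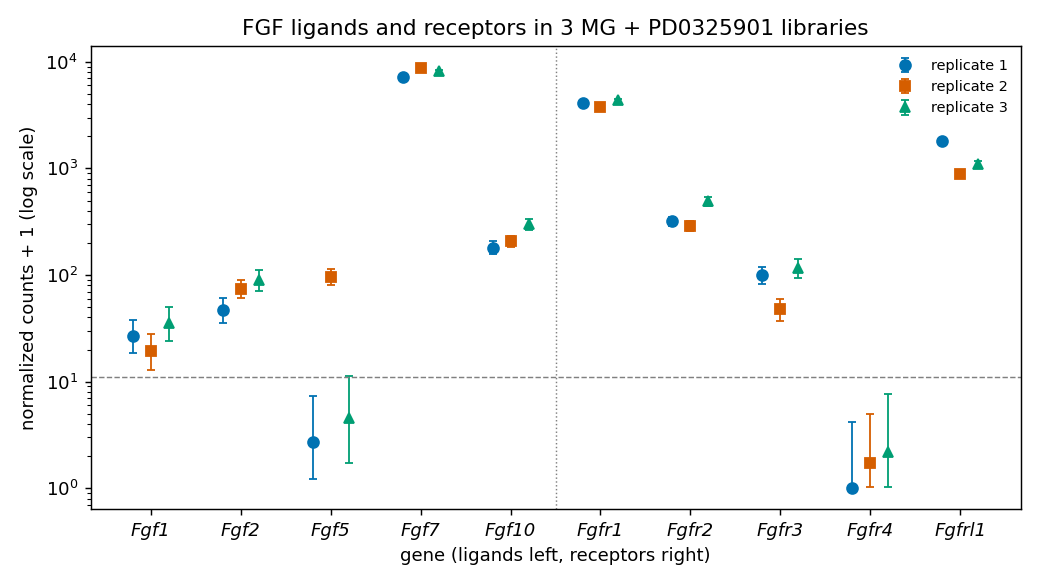
Normalized counts + 1 on a log axis for the 5 ligand genes (left of the dotted line) and the 5 receptor genes in each library, with bars for the 95% exact Poisson interval; the dashed line marks 10 normalized counts. Fgf7 and Fgfr1 lie at 3801 or higher in every library, Fgf5 lies above the line in replicate 2 only, and Fgfr4 lies under it in all 3.

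The upstream sequences of 2 ligand genes are shown, 250 bases before the RefSeq start of each (GRCm38.p6), because Fgf7 was the highest ligand in every library and Fgf5 the ligand that differed most between libraries. The Fgf7 window lies at chr2:126034408-126034657 and the Fgf5 window at chr5:98253934-98254183, both on the plus strand. Capitals mark the motifs found, which in Fgf5 are an Ets core read as CCGGAA on the minus strand at -241 to -236 from the start and a GC box read as GGGCGG on the minus strand at -74 to -69.
Fgf7: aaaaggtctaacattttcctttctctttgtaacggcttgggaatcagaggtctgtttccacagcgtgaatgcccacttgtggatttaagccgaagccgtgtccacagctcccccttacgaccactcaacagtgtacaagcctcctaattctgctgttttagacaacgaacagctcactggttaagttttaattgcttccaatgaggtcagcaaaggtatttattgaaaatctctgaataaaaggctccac
Fgf5: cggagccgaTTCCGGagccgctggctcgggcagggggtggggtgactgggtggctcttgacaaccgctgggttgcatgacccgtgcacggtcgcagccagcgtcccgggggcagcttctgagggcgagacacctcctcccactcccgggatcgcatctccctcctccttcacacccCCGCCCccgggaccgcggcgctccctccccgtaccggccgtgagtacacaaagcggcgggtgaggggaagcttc

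The windows differ in base composition. That of Fgf7 has 43.6% G and C and 6 CpG, the median over 32851 RefSeq promoter windows of the same length, and that of Fgf5 has 70.8% G and C and 24 CpG, more than 88.0% of the windows. Both strands of the windows of 8 members (9 windows, as Fgfr3 has a pair) were searched for these and other letters. Fgf1 and Fgfr1 had no window in the source used here and were not searched. The AP-1 site, searched as TGANTCA, is in 6.75% of all windows and in no member window. The CRE site, searched as TGACGTCA, is in 1.55% of all windows and in no member window. The TATA box, searched as TATAAA, is in 12.4% of all windows and in no member window. The Ets letters, in 12.0% of all windows, are in those of Fgf5, Fgfrl1 and Fgfr4. GC boxes, in 32.7% of all windows, are in every member window but those of Fgf7 and Fgfr2, with 4 in that of Fgfrl1. These are letter matches only and say nothing of factor binding.

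Among the ligands, Fgf7 encodes keratinocyte growth factor and lies on chromosome 2 from 126034658 to 126091185, plus strand (GENCODE M21, GRCm38, as all gene positions here). It had 7242 normalized counts in replicate 1, 8792 in replicate 2 and 8120 in replicate 3, a mean of 8051 ± 777 (SD, n = 3). The libraries lay close together, with the highest 1.21-fold above the lowest, and 83.8% of the 13154 genes whose mean reached 10 normalized counts had a wider range. Divided by the length of its exons (3.25 kb as the union over transcripts), its level was 2479 ± 239 normalized counts per kb, rank 395 of 12510 genes. Summed per kb over 18 secreted FGF genes, Fgf7 held 96.2%, 95.5% and 95.8% of the total in replicates 1, 2 and 3. This share does not depend on how the libraries were scaled.

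Fgf10, the relative of Fgf7 that drives epithelial budding in the embryo, lies on chromosome 13 from 118669791 to 118792115. Its 180 normalized counts in replicate 1, 207 in replicate 2 and 299 in replicate 3 gave a mean of 229 ± 62.3 (SD, n = 3). Replicate 3 was the highest, with an interval of 263 to 338 that lies above those of the others, and replicates 1 and 2 overlapped within counting error. Fgf7 exceeded Fgf10 per kb by 57.1-fold, 60.1-fold and 38.5-fold in replicates 1, 2 and 3. The antisense gene Gm16263, which shares 123 exon bases with Fgf10, had at most 8.68 normalized counts.

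Fgf2 and Fgf1 encode basic and acidic FGF, which leave cells without a classical signal peptide. Fgf2 (chromosome 3, 37348346 to 37410108) had 46.0 normalized counts in replicate 1, 73.3 in replicate 2 and 88.9 in replicate 3, which average 69.4 ± 21.7 (SD, n = 3). Replicate 1 was the lowest. Its interval of 34.5 to 60.2 narrowly overlapped that of replicate 2, 59.9 to 88.8, and lay under that of replicate 3. Replicates 2 and 3 overlapped within counting error. Of the exon bases of Fgf2, 640 (9.44%) are shared with Nudt6 on the opposite strand, which had 62.5, 21.8 and 39.1 normalized counts, and whether the authors counted by strand is not given in the sources used here, so reads there cannot be assigned with certainty. Fgf1 had 26.1, 18.3 and 34.4 normalized counts on 30, 26 and 29 reads, a mean of 26.2 ± 8.03 (SD, n = 3). Its intervals overlapped in all 3 libraries.

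Fgf5, whose product ends the growth phase of the hair cycle, lies on chromosome 5 from 98254184 to 98277030. It had 1.74 normalized counts in replicate 1, 95.1 in replicate 2 and 3.56 in replicate 3, which rest on 2, 135 and 3 reads. Replicate 2 alone was above the minimum of 10, and the other libraries were at or under 3 reads, the floor used here as the one-sided 95% limit of a count of 0 and somewhat lower than the upper end of the two-sided interval for 0 reads. The ratio of replicate 2 to replicate 1 was 54.8, with an exact interval of 14.9 to 457 for counting error. The mean over 3 libraries, 33.5 ± 53.4 (SD, n = 3), therefore describes no library, and without replicate 2 it was 2.65. Of those 13154 genes, 0.426% had a wider range than Fgf5, which reached the mean of 10 through replicate 2 alone. Replicate 2 is also the library with the high Thy1 and Tek, the low Dcn and the low tendon and cartilage marker sums, and the part of those differences in the Fgf5 level was not tested.

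Among the receptors, Fgfr1, the main FGF receptor of mesenchymal cells, had 4067 normalized counts in replicate 1, 3801 in replicate 2 and 4364 in replicate 3. These average 4078 ± 282 (SD, n = 3), with 1.15-fold between the extremes. This was the narrowest range among the members, narrower than in 91.1% of the 13154 genes. The gene lies on chromosome 8 from 25513654 to 25575718, and its antisense neighbour Gm16159 had no reads. Summed per kb over the 4 kinase receptor genes, Fgfr1 held 90.2%, 91.8% and 87.4% of the total.

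Fgfr2, the receptor whose epithelial splice form binds FGF7 and FGF10, had 317 normalized counts in replicate 1, 287 in replicate 2 and 490 in replicate 3, a mean of 365 ± 109 (SD, n = 3). Replicate 3 was the highest, and replicates 1 and 2 overlapped within counting error. Fgfr1 exceeded Fgfr2 per kb by 13.4-fold, 13.8-fold and 9.32-fold in replicates 1, 2 and 3. Counts per gene do not separate the splice forms, so which form of Fgfr2 was present is not known from these values. The gene spans chromosome 7 from 130162451 to 130266808 on the minus strand in RefSeq, whereas GENCODE M21 extends it to 133123350, where it shares 314 exon bases with Ctbp2 on the same strand. Ctbp2 had 551, 956 and 660 normalized counts, and how the reads in the shared bases were assigned is not known.

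Fgfr3, which restrains growth of cartilage in long bones, had 99.0 normalized counts in replicate 1, 46.5 in replicate 2 and 115 in replicate 3, which average 86.8 ± 35.8 (SD, n = 3). Replicate 2 was the lowest, with an interval of 36.0 to 59.2 that lies under both others, and replicates 1 and 3 overlapped. The tendon, cartilage and Schwann cell marker sums were lowest in the same library, and the part of these markers in the Fgfr3 level was not tested. Of the exon bases of Fgfr3, 998 (13.9%) are shared with G630022F23Rik on the opposite strand, so the gene of origin of reads there is uncertain. No counts under the name G630022F23Rik were among the 43472 rows, and whether the annotation the authors used held that gene is not known. Fgfr4, a receptor known from liver, had 0, 1 and 1 reads, under the floor of 3 reads, which equals 2.61, 2.11 and 3.56 normalized counts. The two-sided 95% interval for the 0 reads in replicate 1 reached 3.20 normalized counts.

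Fgfrl1 encodes an FGF-binding receptor without a tyrosine kinase domain and lies on chromosome 5 from 108692382 to 108706924. It had 1796 normalized counts in replicate 1, 879 in replicate 2 and 1099 in replicate 3, a mean of 1258 ± 478 (SD, n = 3). Replicate 1 was 2.04-fold above replicate 2, and the counting intervals of the 3 libraries did not overlap. With the libraries scaled to equal totals of reads, the range of Fgfrl1 fell to 2-fold or less. Over the 3 libraries, the genes with a profile closest to that of Fgfrl1, by Euclidean distance of centred log2(normalized count + 1) over genes whose mean reached 100, were Tnfsf12 at 0.0149, Hilpda at 0.0197 and Ddit4l at 0.0348. Within the wider distance of 0.25 lay 266 of 9991 genes. Such likeness was not tested, and with so few libraries nothing more is read from it.

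Ordered by mean normalized counts per kb, the members ran Fgf7, Fgfrl1, Fgfr1, Fgf10, Fgfr2, Fgf5, Fgfr3, Fgf2, Fgf1 and Fgfr4. The steps from Fgf7 to Fgfrl1 and from Fgfr1 to Fgf10 were clear of the spread between libraries. Fgf7 was 3.45-fold, 8.56-fold and 6.33-fold above Fgfrl1 in replicates 1, 2 and 3, and Fgfr1 was at least 6.81-fold above Fgf10 in every library. The ranges of Fgfrl1, with 645, 316 and 395 normalized counts per kb, and Fgfr1, with 412, 385 and 442, overlapped, and Fgfrl1 was the higher in replicate 1 only. Fgf10 stood above Fgfr2 in 3 of 3 libraries, but their ranges of 39.1 to 64.9 and 27.8 to 47.4 per kb overlapped. From Fgfr2 down to Fgf2, neighbours also overlapped, and Fgf5 moved from rank 9 in replicates 1 and 3 to rank 5 in replicate 2. The ranges of Fgf2 and Fgf1 did not overlap, but narrowly, with a lowest of 6.79 per kb for Fgf2 and a highest of 6.29 for Fgf1. In replicate 1 Fgf2 was 1.42-fold above Fgf1. Fgf1 was clear of Fgfr4. By the longest transcript in place of the union of exons, Fgfr1 stood above Fgfrl1, Fgfr2 above Fgf10 and Fgfr3 above Fgf5.

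**Figure D2:**
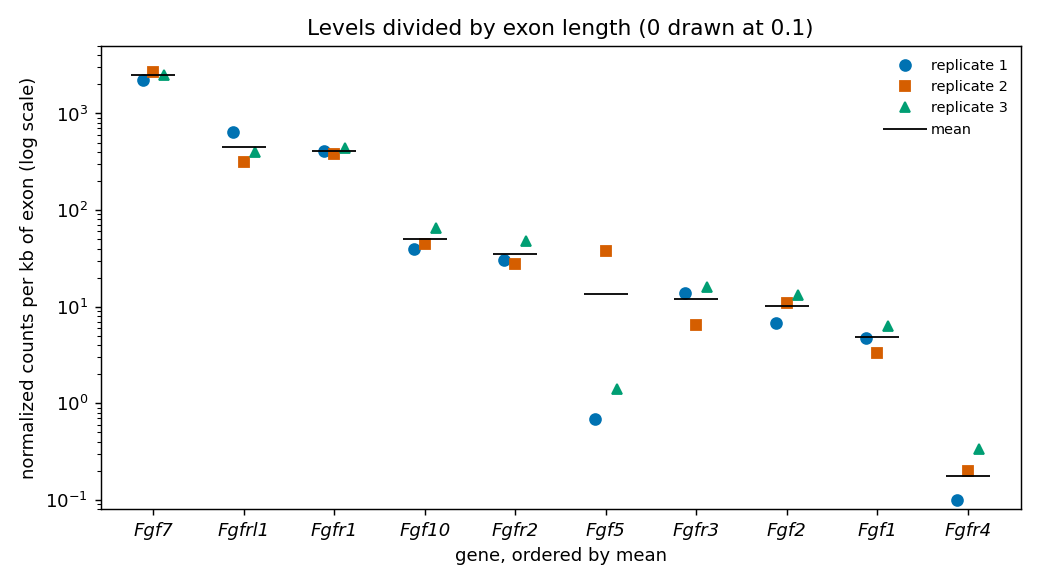
Normalized counts per kb of exon on a log axis, members ordered by the mean (black dash), with 1 symbol for each library; the value of 0 for Fgfr4 in replicate 1 is drawn at 0.1. Fgf7 stands above all others near 2479 per kb, followed by Fgfrl1 and Fgfr1, whose symbols overlap.

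Spread between the replicates was then set against that of all genes. Of the 9 members with a mean of at least 10 normalized counts, 3 (Fgf5, Fgfr3 and Fgfrl1) spanned more than 2-fold between libraries after adding 1. This is 33.3%, against 26.5% of 13154 genes. Fgf5 reached that mean through replicate 2 alone. Its range of more than 2-fold, and its high replicate 2 counted later in this paragraph, follow from that entry. On the log2(normalized count + 1) scale, the SD between libraries had a median of 0.44 over these members and 0.32 over all genes. Without replicate 2, none of the 8 members left had such a range, against 9.12% of all genes. Replicate 2 stood more than 2-fold above both others in 1 member, Fgf5, against 5.20% of all genes, and more than 2-fold below both in 1 member, Fgfr3, against 4.87%. Replicate 1 stood so far above both others in 0 members, against 2.29% of all genes, and below them in 0, against 1.97%. Replicate 3 did so in 0 members above, against 1.28%, and in 0 below, against 2.30%. Replicate 3 held the highest value for 6 of these 9 members (Fgf1, Fgf2, Fgf10, Fgfr1, Fgfr2 and Fgfr3) and the lowest for 0, while over all genes it was the highest in 27.8% and the lowest in 28.6%. Replicate 3 also had the fewest reads and the highest leukocyte marker sum. Its fibroblast marker sum was the highest as well, 511672 normalized counts against 342222 and 386655 for replicates 1 and 2. Of those 8 markers, 5 peaked there, while Pdgfra, Thy1 and Dcn did not. The part of the reads and of either marker sum in the order of the members was not tested. The members were read from the same 3 libraries and are not independent, so no test was made.

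**Figure D3:**
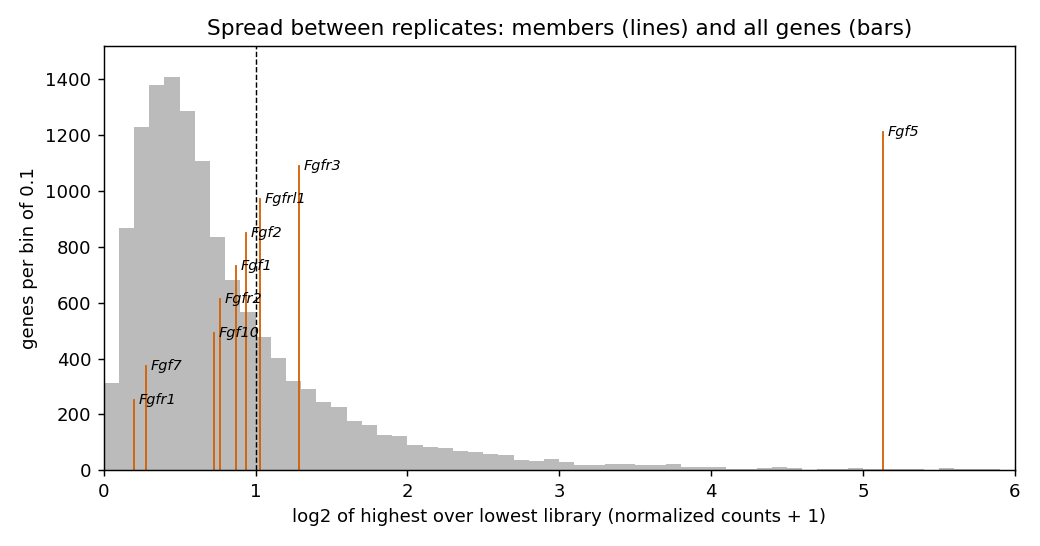
Histogram of log2 of the highest over the lowest library (normalized counts + 1) for 13154 genes whose mean reached 10, with an orange line at each of 9 members and a dashed line at 2-fold; the axis ends at 6. Fgfr1 and Fgf7 lie at the narrow end, Fgf5 far out at a ratio of 35.1, and line heights serve only to separate the names.

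Pairs of libraries were compared on the reads themselves, by two-sided exact binomial tests with Benjamini-Hochberg adjustment over every gene for which the pair held 10 reads or more. A call here means a difference between libraries, not between conditions, beyond counting error with every read taken as independent. Between replicates 1 and 2, 6 of 9 members tested were called at an adjusted p under 0.05, against 69.1% of all genes. Between replicates 1 and 3 it was 6 of 8, against 52.0%, and between replicates 2 and 3 it was 8 of 9, against 62.6%. With 8 or 9 members tested, nothing particular to them is read from these shares. Fgf5 held 2, 135 and 3 reads in replicates 1, 2 and 3, so it was tested only in the pairs with replicate 2. Its calls there, with and without a 2-fold limit, rest on the same reads that let it be tested. Among calls that also exceeded 2-fold, Fgf5, Fgfr3 and Fgfrl1 were left between replicates 1 and 2 (against 20.3% of all genes), 0 members between replicates 1 and 3 (against 9.27%) and Fgf5 and Fgfr3 between replicates 2 and 3 (against 16.4%). Fgf7 shows how small a difference passes. Its replicate 2 was 1.21-fold above replicate 1 with an interval of 1.18 to 1.25 and an adjusted p of 2.4e-42 in the exact binomial test. Fgf1 passed only between replicates 2 and 3, where the ratio was 1.88 with an interval of 1.07 to 3.32 and the adjusted p was 0.040 in the exact binomial test. That call was lost with libraries scaled to equal totals and without the minimum of reads, and equal totals also ended the calls of Fgfr1 between replicates 1 and 2 and between replicates 1 and 3.

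The other genes of the pathway were read from lists by role. Of the 13 other secreted FGF genes, Fgf18 alone was detected, with 17.8 ± 5.43 normalized counts (SD, n = 3), while Fgf3, Fgf4, Fgf6, Fgf8 and Fgf16 had no reads in any library. Fgf9 had 14.8, 0 and 4.74 normalized counts in replicates 1, 2 and 3. Of the 4 intracellular FGF homologous factors, which do not act through FGF receptors, Fgf13 was detected with 166 ± 41.4 normalized counts (SD, n = 3). Its family member Fgf11 had 13.3 ± 6.31, with replicate 3 under the minimum.

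Among 7 cofactor genes, 3 were detected. Kl and Klb, the klotho coreceptors that hormone-like FGFs need, had no reads. The FGF receptor partners Flrt2 and Flrt3 had 478 ± 96.3 and 247 ± 83.9 normalized counts (SD, n = 3), and Fgfbp3, a carrier protein of FGFs, had 68.8 ± 25.3. Flrt1 varied most, with 37.3, 7.75 and 8.30 normalized counts in replicates 1, 2 and 3, so replicate 1 alone was above the minimum of 10.

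All 11 genes of heparan sulfate synthesis and editing were detected. By mean, the chain polymerase gene Ext1 led with 4641 ± 972 normalized counts (SD, n = 3), and the sulfatase gene Sulf1 came next with 4391 ± 1062. The range was more than 2-fold in 3 of the 11. The widest was that of Hs6st1, a 6-O-sulfotransferase gene, with 705, 1928 and 594 normalized counts, where replicate 2 was the highest.

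The 10 adaptor genes were all detected. Ptpn11, which encodes the phosphatase SHP2, led by mean with 6267 ± 1293 normalized counts (SD, n = 3), and Shc1 came next with 3538 ± 356. Frs2, the docking protein of FGF receptors, had 565, 1137 and 561 normalized counts in replicates 1, 2 and 3, so replicate 2 stood above both others. Cbl, a ubiquitin ligase gene, had the widest range, with 30.4, 290 and 134.

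Of 9 feedback and response genes of FGF and ERK signalling, 8 were detected. Spred1 and Spred2 had the highest means, with 691 ± 94.3 and 357 ± 31.1 normalized counts (SD, n = 3). Spry1 was the exception to detection and had the widest range, with 4.34, 26.1 and 26.1 normalized counts. Levels without the inhibitor were not compared, so these values do not show how far MEK inhibition acted on them. Over all 54 genes of these lists, 34 were detected in every library and 37 had a mean of at least 10 normalized counts. Of those 37, 13 (35.1%) had a range of more than 2-fold, against 26.5% of all genes. Flrt1, Fgf11 and Spry1 count among the 13 but did not reach 10 in every library. Their high libraries carried them past the minimum, which favours a wide range.

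**Figure D4:**
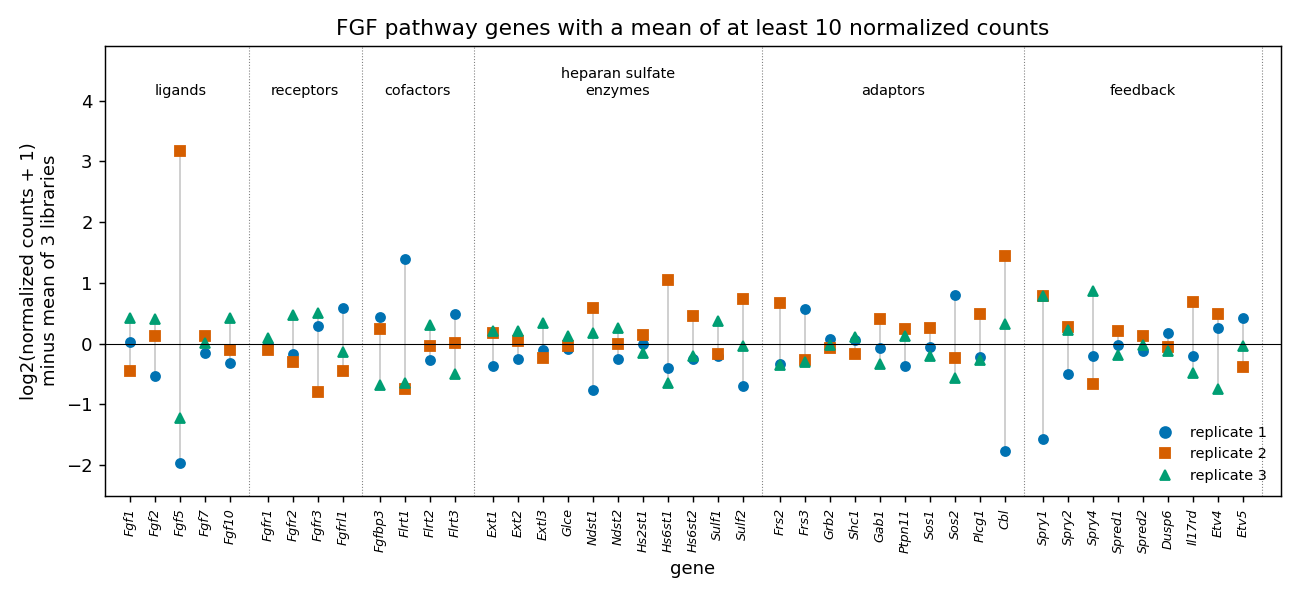
Deviation of each library from the mean of 3 libraries, in log2(normalized counts + 1), for the ligand and receptor members and 4 pathway lists, genes with a mean of at least 10 only. Fgf5 in replicate 2 stands highest of all points, while Fgf7 and Fgfr1 lie close to 0 in every library, as do Grb2 and other genes of the pathway lists.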

How the data were processed

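RNA was sequenced from 3 MG + PD0325901 libraries (stranded mRNA kit, single-end reads). The authors aligned reads to mm10 with TopHat 2.0.13, counted them per gene with HTSeq 0.5.3p3 and normalized them with DESeq. The annotation, the strand setting and the libraries behind the size factors are not given in the sources used here. The deposited signal is normalized counts, and 100% of nonzero values were whole reads (tolerance 0.01 read) at size factors of 1.15, 1.42 and 0.844, so read counts were recovered as rounded multiples. All rows carried names, and 3 further columns of per-sample values, which match no sample label, were not used.

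Each mean and SD is over the normalized counts of the libraries. Ranges used a pseudocount of 1 and a mean of at least 10. Exon lengths, positions and overlaps came from GENCODE M21, and lengths were found for 95.1% of genes. Python 3.11.15, scipy 1.17.1 and, for TMM factors, edgeR 4.0.16 were used. Steps were tested on simulated data. Members and lists were chosen with earlier results of these data known. All members were named, and from each other list the 2 highest by mean and the widest range, beside any gene of a list with at most 3 detected genes, and markers by list. Frs2, Grb2 and the markers given singly were named after their values were seen. The alternatives were other scalings, minimums, pseudocounts, fold limits, lengths and each replicate left out.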

Additional observations from a re-analysis of the deposited data

How the results depend on the processing

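No paired analysis was possible because the series has 1 condition. The count of 3 members with a range of more than 2-fold was 1 at a mean of at least 100 normalized counts, 7 at 1.5-fold and 1 at 4-fold, each by construction, and between 0 and 3 with a replicate left out, 0 being without replicate 2. Over all genes, the same 3 settings gave 16.6%, 52.0% and 7.06%, and without a minimum 4 of 10 members and 42.3% of all genes. With a 2-fold difference required, calls between libraries fell to 3 of 9 members for replicates 1 and 2, 0 of 8 for replicates 1 and 3 and 2 of 9 for replicates 2 and 3. Fgf5 counts in both pairs with replicate 2, whose reads alone let it be tested. In the order per kb, 4 of 10 members kept their place by the longest transcript, and between 6 and 10 with a replicate left out. Member means moved by less than 1 SD in all 50 alternatives, but a mean of 3 values cannot move further when 1 is left out. Few reads limit the precision of Fgf5 in replicates 1 and 3 and of Fgfr4 in all libraries. The ratio of Fgf5 in replicate 2 to replicate 1 still exceeded counting error, with an interval of 14.9 to 457.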
